A study of Caenorhabditis elegans with 2 samples.

Results

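The methionine and S-adenosylmethionine cycle genes are 10 genes of Caenorhabditis elegans that make, use and recycle methionine and the methyl donor S-adenosylmethionine: metr-1, mtrr-1, mthf-1, mel-32, sams-1, sams-3, sams-4, sams-5, ahcy-1 and cbs-1. They are 10 of 19973 protein-coding genes on the nuclear chromosomes. NHR-10, a nuclear hormone receptor, was mapped on chromatin of whole L2 larvae by immunoprecipitation and sequencing (ChIP-seq), in 1 group of 2 biological replicates with no other condition. All animals were of strain OP239, which carries the unc-119(ed3) mutation on chromosome III and the insertion wgIs239, a stable transgene of NHR-10 with GFP and FLAG fused at its C terminus. The 2 sexes were pooled, so cell types and sexes cannot be told apart, and the control library was not analysed here. Regions were assigned by position alone. A pooled region belonged to a gene when its summit, the position of highest signal, lay within 2000 bp of any annotated transcription start site (TSS) of the gene or in the gene body. By this rule the genes held 20 distinct regions of the 30000 in the pooled list, which was made from both replicates, and 14 of the 20 had a signal above the list's median.

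In the cycle, methionine synthase passes a methyl group from folate to homocysteine with vitamin B12 as its cofactor. S-adenosylmethionine synthetases turn the methionine formed into S-adenosylmethionine, and the homocysteine left after methyl transfer is either methylated again or drawn off towards cysteine. In C. elegans, vitamin B12 is needed for the methionine cycle and for the canonical breakdown of propionate. NHR-10 is known for switching on a B12-independent propionate route together with NHR-68, while low flux through the methionine cycle is known to act on cycle genes through another receptor, NHR-114.

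Each region carries a deposited signal value, whose scaling was not given in the sources used here, so it is read within 1 list and mainly as a rank, with rank 1 the highest signal. The pooled list had a median signal of 8.38. The thresholded list, the regions kept by the authors' irreproducible discovery rate (IDR) step, held 491 regions with signals of 27.4 or more. The replicate 1 list held 22993 regions with a median signal of 3.12, and the replicate 2 list 30000 with a median of 6.86. Sequencing depth is unknown because the lists hold no read numbers, and no interval on a signal could be given. All 30000 pooled regions ended inside the WBcel235 chromosomes, the assembly of the ce11 coordinates used throughout.

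Binding above the authors' threshold was listed at 1 of the 10 genes, ahcy-1, whose product breaks down S-adenosylhomocysteine. Over all protein-coding genes the same rule gave a thresholded peak at 3.59%. At least 1 pooled region was listed at 9 genes, against 73.8% of all protein-coding genes, and sams-5 had none. A region of the highest 10% of the pooled list, rank 3000 or better, was listed at 4 genes, ahcy-1, cbs-1, sams-1 and mtrr-1, against 16.0% of all protein-coding genes. The count was 2 with TSS windows of 1000 bp or 500 bp, where the genes were sams-1 and cbs-1. It was also 2 with the TSS window and no gene body, and in the replicate 1 list alone, where they were mtrr-1 and ahcy-1. The genes behind the count thus changed with the setting. The best-ranked region of a member stood at 36.9% of the list in the median, against 48.6% over all protein-coding genes, with genes without a region set at the end of the list. This order turned with the TSS window alone, at 57.4% for members against 54.8%. In the replicate 2 list alone the median was 9.01% against 47.8%, and in the replicate 1 list alone 36.2% against 62.9%. Among genes with a region, the median of the highest signal was 10.5 for members and 9.95 for all protein-coding genes. The searched sequence was longer for members, with a median of 5146 bp against 4182 bp for all protein-coding genes, and held 4.13 regions per 10 kb against 3.13. The part of that length in the counts was not tested.

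**Figure D1:**
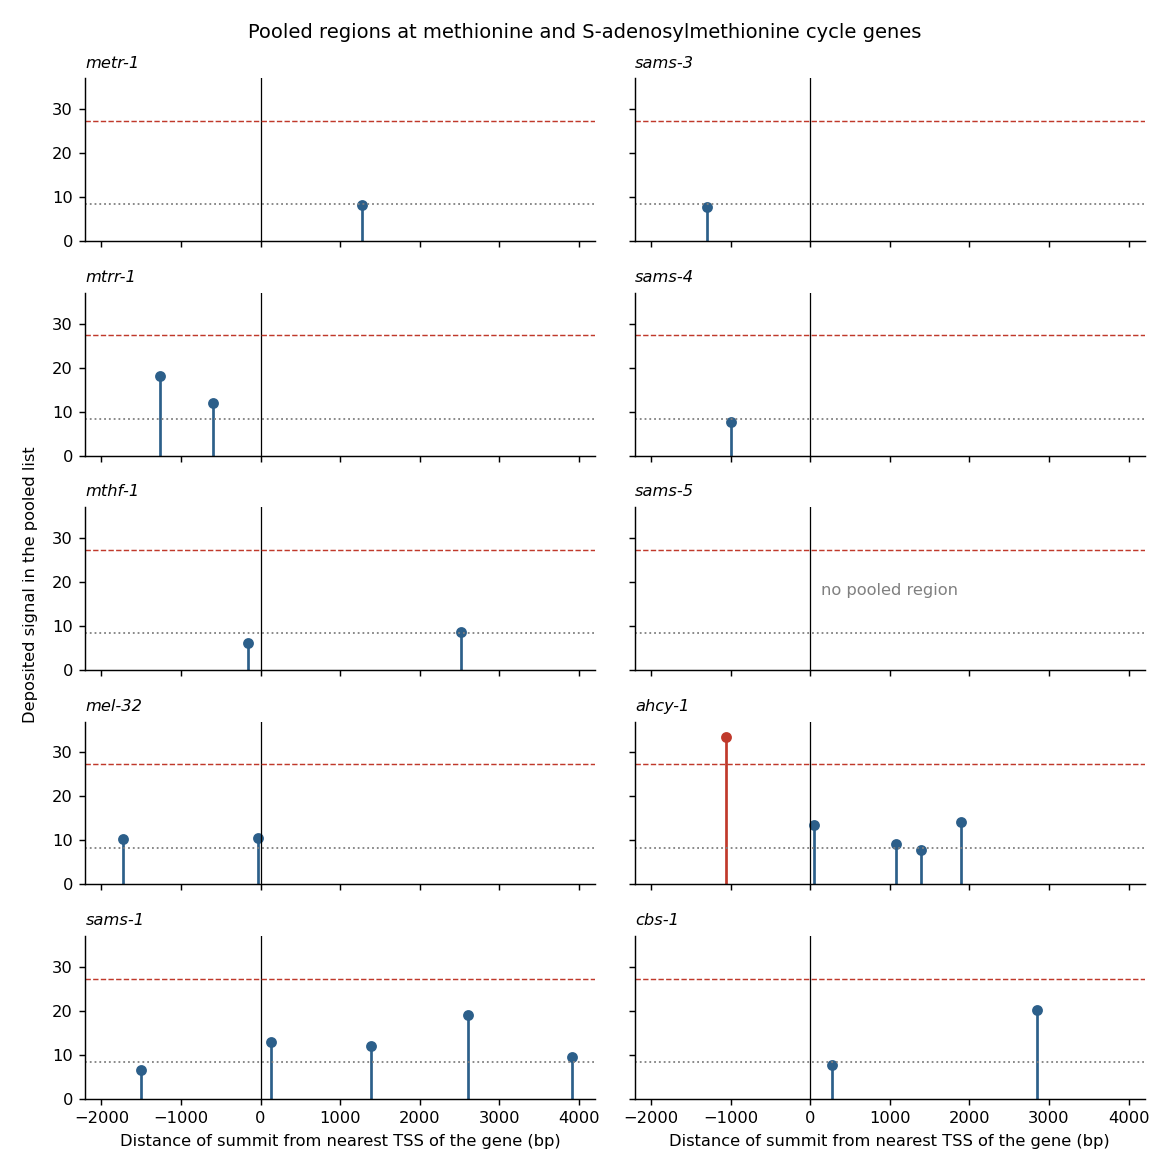
Deposited pooled signal (y axis, no unit given) of each region against the distance of its summit from the nearest TSS of the gene in bp (x axis, negative upstream), with 1 panel per gene. Red marks the thresholded peak, blue the other regions, the dotted line the pooled median of 8.38 and the dashed line the lowest thresholded signal of 27.4. The red point of ahcy-1 is the only one above the dashed line, and sams-5 has no region.

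The genes that remethylate homocysteine differed among themselves, from mtrr-1 with a region in the highest 10% to metr-1 near the list median. metr-1 encodes the B12-dependent methionine synthase and lies on II from 10926561 to 10931078 on the plus strand. Its pooled region had a signal of 8.14 and rank 16103, with a summit at 10927833 in a coding exon, 1272 bp downstream of the TSS. The region overlapping it had a signal of 2.43 and rank 17662 in replicate 1, and a signal of 6.11 and rank 19335 in replicate 2. No pooled region was listed upstream of metr-1 within the window. Each replicate list had a further upstream region not seen in the pooled list, at 1793 bp in replicate 1 (signal 2.66) and at 734 bp in replicate 2 (signal 4.87), so the replicates did not share a position there.

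mtrr-1 encodes methionine synthase reductase, which keeps the synthase's cofactor active, and lies on II from 9285975 to 9289132 on the plus strand. Its pooled regions lay in intergenic sequence, upstream of mtrr-1 and of no other protein-coding gene within the rule. The farther region had a signal of 18.1 and rank 1418, with its summit at 9284713, 1262 bp upstream. In replicate 1 the region overlapping it had a signal of 13.1 and rank 136, which put it among the 491 highest of that list, and its summit was 170 bp away. In replicate 2 the overlapping region had a signal of 13.6 and rank 1810, with a summit 28 bp away. The 2 replicates thus both listed this region in their highest 10%, but only replicate 1 placed it among its highest 491. The nearer region, 600 bp upstream at 9285375, had a pooled rank of 5143, with rank 9431 in replicate 2 and no overlapping region in replicate 1.

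The sequences around the highest summits of mtrr-1 and sams-1 are shown because these are among the highest signals of the members, and that of mthf-1 because its replicates disagreed. Each is the plus strand of WBcel235, 200 bp around the pooled summit, from RefSeq, with capitals marking a match to TGATAA or to the repeat GAGAGA on either strand. The mtrr-1 sequence is chrII:9284613-9284812, the mthf-1 sequence chrII:7774169-7774368 and the sams-1 sequence chrX:11968468-11968667.
mtrr-1: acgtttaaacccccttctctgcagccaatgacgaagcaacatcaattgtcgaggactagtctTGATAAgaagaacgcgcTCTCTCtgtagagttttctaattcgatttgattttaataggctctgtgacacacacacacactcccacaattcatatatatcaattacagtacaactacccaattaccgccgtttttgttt
mthf-1: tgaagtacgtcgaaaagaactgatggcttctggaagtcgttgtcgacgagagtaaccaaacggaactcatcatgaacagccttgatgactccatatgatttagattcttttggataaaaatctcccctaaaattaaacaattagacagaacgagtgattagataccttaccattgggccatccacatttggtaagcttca
sams-1: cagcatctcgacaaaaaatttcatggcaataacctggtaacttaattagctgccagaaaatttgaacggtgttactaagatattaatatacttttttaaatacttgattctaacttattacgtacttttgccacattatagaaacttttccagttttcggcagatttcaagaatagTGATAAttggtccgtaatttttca
In the mtrr-1 sequence the TGATAA and TCTCTC words stand close together to the left of the summit, while the mthf-1 sequence holds none of the 7 motifs searched. The sams-1 sequence has its TGATAA near the right end.

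mthf-1 encodes methylenetetrahydrofolate reductase, which makes the methyl folate that the synthase uses, and lies on II from 7773904 to 7777823 on the minus strand. Its region in a coding exon, at 7774269 and 2516 bp downstream of the nearest mthf-1 TSS, had a pooled signal of 8.59 and rank 14095. In replicate 2 the summit lay at the same base, with a signal of 14.0 and rank 1665, and replicate 1 had no overlapping region. The pooled rank was therefore far below the rank in the replicate that listed it. This summit was nearer to a TSS of C06A8.6, at 1770 bp, than to one of mthf-1. At the promoter, 160 bp upstream at 7777983, the pooled signal was 6.03 and the rank 29760, close to the end of the list. Replicate 1 had a region overlapping it, with a signal of 4.08 and rank 6142, and replicate 2 had none.

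mel-32 encodes serine hydroxymethyltransferase, which supplies folate with the carbon unit for this step, and lies on the minus strand of III, between 6440145 and 6443000. A region at 6442854, in an intron and 32 bp from the nearest of 4 annotated TSSs, had a pooled signal of 10.5 and rank 8021. It ranked 17415 in replicate 1 and 22030 in replicate 2, lower in both than in the pooled list. A region 1729 bp upstream, at 6444729, had a pooled signal of 10.4 and rank 8191, with rank 10773 in replicate 1 and 3598 in replicate 2. In replicate 1 the overlapping summit was 405 bp away, so the match there is by overlap alone. This summit lay in the 3′ UTR of let-721 and 143 bp from the TSS of C05D11.13, the nearest gene.

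Of the S-adenosylmethionine synthetase genes, which turn methionine and ATP into S-adenosylmethionine, sams-1 held regions along its whole length, while sams-3 and sams-4 shared 1 weak region and sams-5 had none. sams-1 lies on X from 11965962 to 11969893 on the plus strand and had 5 pooled regions. The highest, at 11968568 in an intron and 2606 bp downstream of the TSS, had a signal of 19.0 and rank 1229. Its replicate summits lay 3 bp away in replicate 1, with a signal of 2.56 and rank 16419, and 6 bp away in replicate 2, with a signal of 17.5 and rank 847. The position thus agreed closely between replicates while the rank was below the middle of the list in replicate 1 and in the highest 10% in replicate 2. No gene other than sams-1 was within the rule of any of its 5 regions.

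The next regions of sams-1 lay in coding exons, at 11966087 (125 bp downstream of the TSS) with signal 13.0 and rank 3988, and at 11967345 (1383 bp downstream) with signal 12.1 and rank 5035. Replicate 2 listed them at rank 2013 and 2073, and replicate 1 listed no region overlapping either. Another, at 11969880 in the 3′ UTR, had signal 9.52 and rank 10662 and was also listed in replicate 2 alone, at rank 19792. The remaining one, 1503 bp upstream at 11964459, was the lowest with signal 6.65, and it was listed in replicate 1 alone, at rank 5754. The gene body regions and the upstream region of sams-1 were therefore overlapped in different replicate lists, except the intron region, which was overlapped in both. The pooled list was made from both replicates, so a region missing from 1 replicate list need not lack signal in that replicate.

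sams-3 and sams-4 lie on IV in opposite directions, sams-3 from 5848657 to 5850843 on the plus strand and sams-4 from 5844061 to 5846369 on the minus strand, with 2287 bp between their 5′ ends. Between them, 1 pooled region had a signal of 7.70 and rank 18514, under the list median, 994 bp upstream of sams-4 and 1294 bp upstream of sams-3. Replicate 2 had its summit at the same base with signal 6.41 and rank 17441, and replicate 1 had no overlapping region. In the same interval replicate 1 instead listed a region at 500 bp upstream of sams-3, with signal 3.25 and rank 10524. sams-5, on IV from 6277433 to 6279522 on the minus strand, had no region in the pooled list or in either replicate list, and the nearest pooled summit outside its window was 5102 bp from a TSS with signal 6.85. The bodies of sams-3 and sams-4 are largely near copies, and a short stretch of sams-5 is too. Matches of at least 90% identity and 100 bp elsewhere in the genome covered 92.0% of sams-3, 71.0% of sams-4 and 9.23% of sams-5, with a highest identity of 95.8% for sams-3 and 96.3% for sams-5. How reads shared by the copies were counted was not given in the sources used here, and the part of the copies in the absence of regions was not tested. No body of another member and none of the 20 regions had such a match.

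ahcy-1 encodes S-adenosylhomocysteine hydrolase, which removes the product that inhibits methyl transfer, and lies on chromosome I from 6836469 to 6838140 on the plus strand. Its peak was the only thresholded one of the members and the one with the highest pooled signal, 33.6, at rank 314. The summit lay in intergenic sequence at 6835409, 1060 bp upstream of the TSS, with no other protein-coding gene within the rule. The annotated non-coding RNA gene K02F2.11 was 97 bp from the summit. In replicate 1 the overlapping region had a signal of 5.44 and rank 2542, with a summit 37 bp away, and in replicate 2 a signal of 25.8 and rank 335, with a summit 2 bp away. Both replicates placed it near the same base, but its rank was among the highest 491 in replicate 2 and outside the highest 10% in replicate 1. For scale, the region at nhr-68, which encodes the known partner of NHR-10, had a pooled signal of 151 and rank 13.

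The other regions of ahcy-1 lay across the gene and its downstream neighbour dpf-3, which starts just past its end. A region 46 bp downstream of the ahcy-1 TSS had signal 13.4 and rank 3549, with rank 15521 in replicate 1 and 1219 in replicate 2. A region at 6838358 had signal 14.3 and rank 2812, with rank 6558 in replicate 1 and 6017 in replicate 2 by the nearest summit. A further replicate 2 region, with its summit at 6838202 inside the pooled region, had signal 13.5 and rank 1837. The pooled summit at 6838358 lay 4 bp from the TSS of dpf-3 and 1889 bp from that of ahcy-1, so the pooled region is listed for both genes. The region at 6837542 in an intron had signal 9.28, with rank 3246 in replicate 2 and no overlapping region in replicate 1, and the remaining region had signal 7.73. Replicate 1 also listed a coding exon region 635 bp downstream of the ahcy-1 TSS with signal 6.67 and rank 1277, which no pooled region overlapped.

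cbs-1 encodes cystathionine beta-synthase, which draws homocysteine off towards cysteine, and lies on X from 10054275 to 10057528 on the plus strand. Its highest region had a signal of 20.1 and rank 1038, the highest of the member regions under the threshold. The summit at 10057133 was 2852 bp downstream of the TSS in the last part of the gene, in sequence annotated as coding exon in some transcripts and as 3′ UTR in others. It was nearer to the TSS of ZC373.2, at 1299 bp. Replicate 1 had a signal of 4.07 and rank 6164 with a summit 26 bp away, and replicate 2 a signal of 15.9 and rank 1114 with the summit at the same base. The region in an intron 280 bp downstream of the TSS had signal 7.73 and rank 18336, with rank 11548 in replicate 2 and no overlapping region in replicate 1. Replicate 1 listed a region 196 bp upstream, with signal 4.54 and rank 4525, that no pooled region overlapped.

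Signals by position overlapped widely, and the differences between positions were not tested. The 5 regions within 500 bp of a member's TSS had signals from 6.03 to 13.4 with a median of 10.5. The 6 regions farther upstream ran from 6.65 to 33.6 with a median of 11.2, and the 9 regions over 500 bp downstream from 7.73 to 20.1 with a median of 9.52. No region of the highest 10% lay within 500 bp of a member's own TSS, though that of ahcy-1 at dpf-3 lay at the TSS of dpf-3. By annotation, 8 summits were in coding exons, 4 in introns, 2 in 3′ UTRs and 6 in intergenic sequence. A gene that is no member was also within the rule for 8 of the 20 regions, and for 6 a TSS of another gene was nearer. No matching shares over all pooled regions are given here, and the rule itself takes in gene bodies. These counts therefore describe the member regions and do not set them apart from the list.

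**Figure D2:**
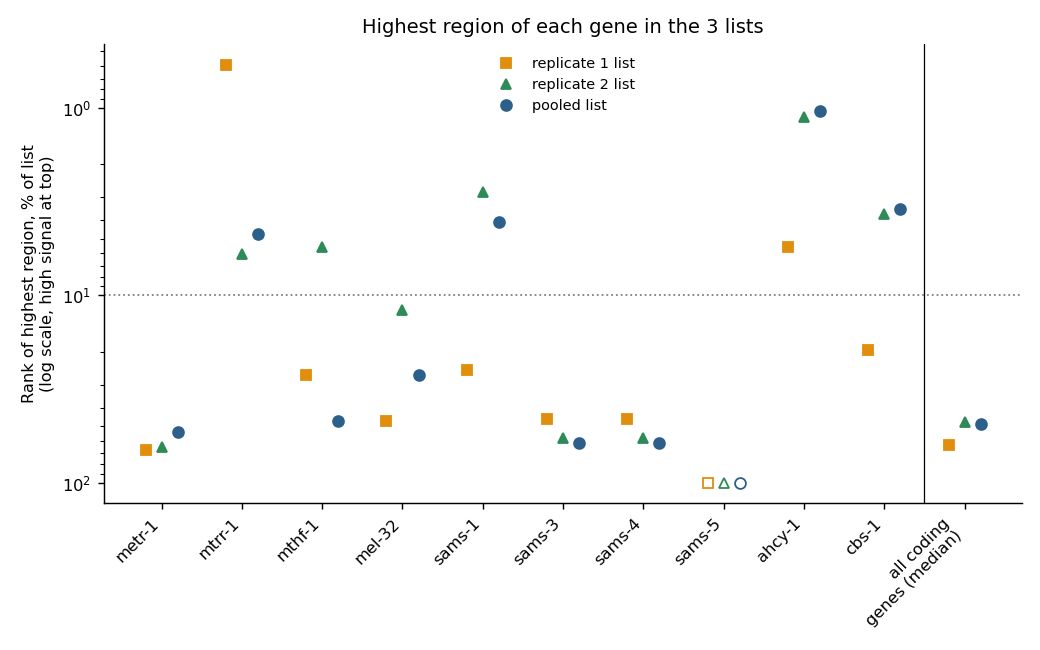
Rank of the highest region of each gene as a percentage of its list (y axis, log scale, high signal at the top) in the replicate 1, replicate 2 and pooled lists, with the median over all protein-coding genes at the right. Open symbols at 100% mark no region, and the dotted line is the highest 10%. Only mtrr-1 and ahcy-1 lie in the highest 10% of all 3 lists, while mthf-1 does so in replicate 2 alone. The replicate 1 symbol of ahcy-1 is a region 635 bp downstream of the TSS that no pooled region overlapped. The thresholded peak of ahcy-1 stood at 11.1% of the replicate 1 list.

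Replicate 2 overlapped more of the member regions than replicate 1 did, 90% against 55%. The same held over all pooled regions, at 77.0% against 43.5%, so this is not particular to the members. Of the 20 pooled regions, 9 were overlapped by a region of both replicates, 9 by replicate 2 alone and 2 by replicate 1 alone. The share in both was 45%, against 30.3% of all pooled regions and 75.4% of those in the highest 10%. The 5 member regions in the highest 10%, at ahcy-1 (2 regions), cbs-1, sams-1 and mtrr-1, were overlapped in both replicates. With a summit within 100 bp required, 5 of the 20 were matched in replicate 1 and 15 in replicate 2, which is 25% and 75%, against 26.0% and 65.3% of all pooled regions. Some region was listed in both replicate lists for 9 of the 10 genes, against 54.0% of all protein-coding genes, though not always at the same place. Among the 491 highest regions, replicate 1 held 1 member gene, mtrr-1, against 3.09% of all protein-coding genes. Replicate 2 held 1, ahcy-1, against 3.52%. The 2 replicates thus named different members.

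**Figure D3:**
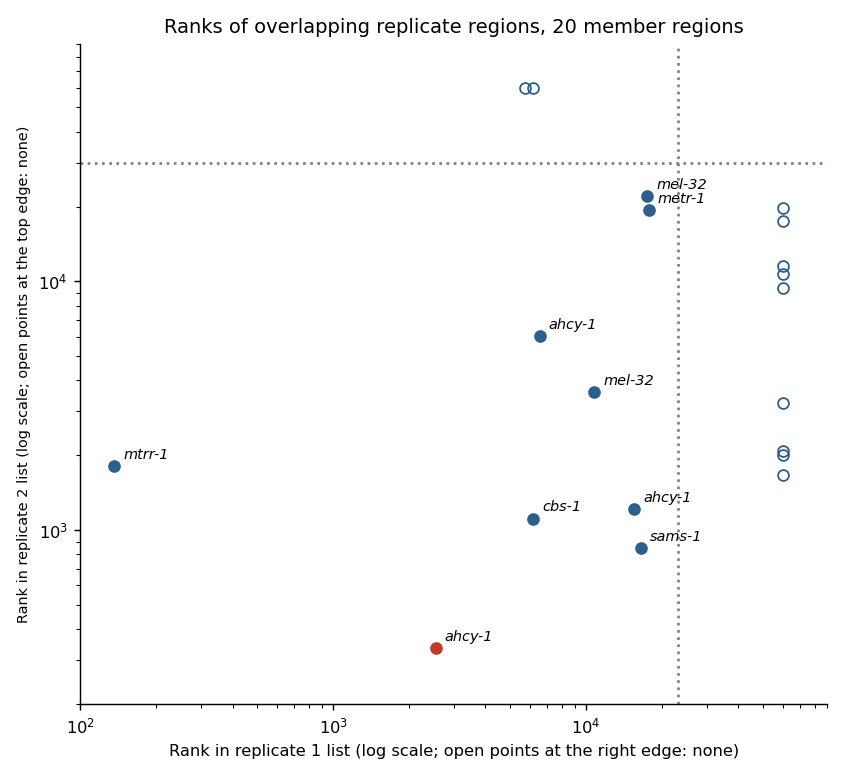
Rank in the replicate 1 list (x axis) and the replicate 2 list (y axis), both on log scales with high signal at low ranks, of the regions overlapping each of the 20 member regions. Filled points have both ranks and carry the gene's name, red is the thresholded peak, and open points beyond the dotted lines (the list lengths, 22993 and 30000) have no region in that replicate. The 9 filled points run from rank 136 (mtrr-1) to rank 17662 (metr-1) in replicate 1. In replicate 2 they run from rank 335 (ahcy-1) to rank 22030 (mel-32).

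The sequence at the member regions was searched for 7 motifs on both strands in 200 bp around each summit. A match is a description of the letters in the window, and matches of different motifs may overlap. GAGAGA was in 6 of the 20 windows (30%), at ahcy-1, cbs-1, mel-32, mthf-1 and mtrr-1, against 13.8% of all pooled windows and 39.7% of thresholded ones. TGATAA, the core of sites for GATA factors such as those of the intestine, was in 5 windows (25%), against 19.1% of pooled windows and 9.57% of thresholded ones. The nuclear receptor half-site AGTTCA was in 1 window, upstream of sams-1, against 12.7% of pooled windows and 5.50% of thresholded ones. AGGTCA was in none, against 4.86% of pooled and 4.68% of thresholded windows. CACGTG was in 1 window, in the intron of cbs-1 (3.80% of pooled and 8.55% of thresholded windows), and TGACGT in 1, in the intron of ahcy-1, with 4 matches there (6.27% of pooled and 8.55% of thresholded windows). GACGCA was in 2 windows, the thresholded peak of ahcy-1 and the region at its TSS, against 5.67% of pooled windows and 29.1% of thresholded ones. The median GC content of the windows was 38% for members and 35% for all pooled regions, and its part in these shares was not tested.

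Lists of neighbouring pathways, chosen with earlier results known, give the surroundings of the cycle. Of 36 genes in 4 related lists, 31 had a pooled region, 8 had one of the highest 10% and 1 had a thresholded peak. Over all protein-coding genes, against which these and the counts of each list are to be read, the shares were 73.8%, 16.0% and 3.59% in the same order. Among the 11 genes listed as using S-adenosylmethionine, directly or in its decarboxylated form, 5 had a region of the highest 10%. The thresholded peak was at anmt-2, with signal 30.4 and rank 395, and it was nearer to nfm-1. Among the 10 genes of transsulfuration, cysteine and glutathione, 6 had a region and 2 had one of the highest 10%, cth-2 (24.4, rank 630) and cysl-2 (17.5, rank 1562). cth-2 encodes a cystathionine gamma-lyase, the step after cbs-1, and its region had rank 398 in replicate 2 and none overlapping in replicate 1. The region of cysl-2 likewise had none overlapping in replicate 1. Among the 10 folate and glycine cleavage genes, all had a region but only alh-3 had one of the highest 10% (16.8), and dao-3 was next with 11.8. The alh-3 summit was nearer to a TSS of mogs-1, at 62 bp, than to one of alh-3, at 737 bp. Neither of these regions had one overlapping in replicate 1. The 5 genes of vitamin B12 handling all had a region and none of the highest 10%, with cblc-1 (12.4) and pmp-5 (12.1) the highest. Of these 2 regions, that of pmp-5 had none overlapping in replicate 1.

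The nearest pooled regions outside the rule of each gene ranged widely in rank, from 5175 at sams-1 to 24096 at metr-1. Those closest to the edge of the 2000 bp window were at mtrr-1 and cbs-1. At mtrr-1 a summit 2018 bp upstream had signal 9.46 and rank 10846, and at cbs-1 one 2050 bp upstream had signal 11.1 and rank 6732. The regions closest to the edge on the inside were those at 1889 bp for ahcy-1 (14.3) and 1729 bp for mel-32 (10.4). None of the nearest regions outside the window of any of the 10 genes was thresholded.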

How the data were processed

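ChIP-seq of tagged NHR-10 from L2 larvae was analysed in 2 biological replicates of 1 group. Per the deposited notes, each replicate's region list was derived by the authors from its alignment and a control, the pooled list from the alignments of both, and the thresholded list from these by IDR. Aligner, region caller and the cutoff applied in the IDR step are not given in the sources used here. The signal of each region is the authors' deposited value. The ce10 lists were not used here. Gene and TSS positions came from Ensembl release 115 (WBcel235) and sequences from the RefSeq assembly of WBcel235. The sequence of the region shared by sams-3 and sams-4 is not reported here. Thresholded status was by identical coordinates and summit. A replicate region was matched to a pooled region by overlap, taking the nearest summit.

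The members and lists were chosen with earlier results of these data known, so no p-value was computed over them. All members were named. Of each related list, genes with a thresholded peak, or else the 2 of highest signal, were named, and genes with a TSS near a leading member region as neighbours. Because there was 1 condition, no test between groups was possible. Near copies were searched with blastn 2.17.0. The assignment of regions to genes was tested on simulated data. Python 3.11.15, numpy 2.4.6, pandas 2.3.3 and matplotlib 3.10.9 were used. Depth per sample is unknown, and no SD of signal over the replicates was computed, since the scaling between lists was not stated. Alternatives covered the window, the TSS, overlap, matching distance, the threshold and each replicate left out.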

Additional observations from a re-analysis of the deposited data

How the results depend on the processing

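Of 46 alternative values of the counts and the median rank, 34 stayed within the limits set for them (1.5 times for a count, the SD over the replicate lists for the median). The limit for the median came from the 2 replicate values that it was also applied to, so their disagreement widened it. A count could stay within its limit with a different gene behind it. The 34 is therefore a loose measure of stability. The count of genes with a thresholded peak was 0 with a TSS window of 1000 bp or 500 bp and when the thresholded list was kept to rank 245 or better, since the ahcy-1 peak lies 1060 bp upstream at rank 314. With a replicate left out there is no thresholded list, and the 491 highest regions of the other replicate stood in for it: the count was 1 without replicate 1 and 1 without replicate 2, from a different gene in each. Genes with a region of the highest 10% numbered 2 at 1000 bp (12.5% of all protein-coding genes), 2 at 500 bp (10.5%) and 2 with the TSS window alone (15.0%). They were sams-1 and cbs-1 at 1000 bp and 500 bp, but mtrr-1 and ahcy-1 with the TSS window alone. Genes with such a region numbered 5 without replicate 1 (16.0%) and 2 without replicate 2 (12.1%), the latter mtrr-1 and ahcy-1. With the cutoff at the highest 5% of the pooled list the count was 4, against 8.99% of all protein-coding genes. At the highest 25% it was again 4, against 31.7%, so the members stood closer to the share of all genes there. Member regions numbered 13 at 500 bp. Genes with a region in both replicates fell to 3 when pooled regions needed a summit of both within 100 bp and to 5 within 250 bp, against 19.6% and 30.1% of all protein-coding genes. The median best rank was 57.4% with the TSS window alone, against 54.8% over all protein-coding genes. Without replicate 1 it was 9.01% against 47.8% over all protein-coding genes, and without replicate 2 it was 36.2% against 62.9%. At 1000 bp it was 36.9% against 66.6%, and at 500 bp 50.3% against 81.2%. The order of members and all genes in this median therefore turned with the TSS window alone. No paired analysis was possible because there was 1 group. Depth was unknown and limits every rank.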
